A study of Mus musculus with 8 samples.

Results

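The activin system of aged mouse epidermis is described here through 9 genes of the 49315 in the count files: the ligand subunit genes Inhba and Inhbb, the follistatin genes Fst, Fstl3 and Fstl1, and the receptor genes Acvr1, Acvr1b, Acvr2a and Acvr2b. The set was built around Inhbb, which was chosen by its large difference between knockout and wild type in these same libraries, and the other genes were added by name. Values of knockout against wild type are therefore given for these 9 genes as a description, and nothing is read from a test of them. RNA was sequenced from epidermis isolated from back skin, labelled as keratinocytes, of mice aged 22 months, in 3 wild-type (WT) libraries and 5 libraries labelled Tgfa knockout (KO). Tgfa encodes a ligand of the EGF receptor. The sources used here do not state the strain, the structure of the targeted allele or whether each library came from 1 mouse.

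Activins are dimers of beta subunits of the TGF-beta superfamily. Inhba encodes the beta A subunit and Inhbb the beta B subunit, and either can instead pair with the alpha subunit, encoded by Inha, to form an inhibin, which opposes activin. Activin binds a type II receptor (products of Acvr2a and Acvr2b), which recruits and phosphorylates a type I receptor (mainly ALK4, the product of Acvr1b), and the signal passes to SMAD2 and SMAD3. Follistatin (Fst) and follistatin-like 3 (Fstl3) bind activin outside the cell and block it. In skin, activin is known for its part in wound repair, keratinocyte growth and hair follicle development.

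Total counts ran from 5313552 to 18292303 per library. The lowest total was that of KO replicate 2, and that library also had the highest rate of counts on olfactory and vomeronasal receptor genes, which skin is not known to use at high levels. Per kb of exon, that rate reached 4.58 counts in KO replicate 2, followed by WT replicate 3 (1.84) and WT replicate 2 (0.933), and elsewhere it ranged from 0.124 to 0.265. Tgfa had 92.5, 85.1 and 112 CPM (counts scaled for depth, here by TMM library sizes) in the WT libraries and 34.4, 43.3, 36.2 and 70.1 in KO replicates 2 to 5. It had 132 CPM in the library labelled KO replicate 1, above every WT library, which puts that label in doubt. The TMM factor of that library, 0.78, was the lowest (0.978 to 1.13 elsewhere), which raises its CPM. As a share of all counts, its 1787 of 17417500 lay under WT replicate 3 (1429 of 12968728) and above WT replicates 1 and 2. The library labelled KO replicate 1 and WT replicate 3 also stood apart in Malat1, at 4.88% and 6.61% of all counts against 1.34% to 1.84% elsewhere. The allele is not described and KO replicates 2 to 5 kept Tgfa counts, so Tgfa cannot settle the label. The names of 5 libraries end in br (all WT, KO replicates 1 and 2), and those of KO replicates 3 to 5 end in bl. What the endings mean is not stated. Keratinocyte markers (6 of 6 detected in every library) summed to 8660 to 18800 CPM in WT and 10000 to 24200 in KO, and fibroblast markers to 34.1 to 39.6 and 3.94 to 74. In bulk RNA, fewer cells of a type and less RNA per cell cannot be told apart.

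The upstream sequences of both beta subunit genes are shown because these genes stood far apart in the counts that follow. They are the 250 bases before the start site in RefSeq (build GRCm38.p6), at chr1:119422249-119422498 on the minus strand for Inhbb and at chr13:16011601-16011850 on the plus strand for Inhba, written 5′ to 3′ with motif matches in capitals.
Inhbb: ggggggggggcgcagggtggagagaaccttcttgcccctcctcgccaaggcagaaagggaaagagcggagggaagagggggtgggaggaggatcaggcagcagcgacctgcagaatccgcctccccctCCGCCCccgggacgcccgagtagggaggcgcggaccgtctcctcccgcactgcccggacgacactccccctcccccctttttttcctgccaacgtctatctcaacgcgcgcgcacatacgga
Inhba: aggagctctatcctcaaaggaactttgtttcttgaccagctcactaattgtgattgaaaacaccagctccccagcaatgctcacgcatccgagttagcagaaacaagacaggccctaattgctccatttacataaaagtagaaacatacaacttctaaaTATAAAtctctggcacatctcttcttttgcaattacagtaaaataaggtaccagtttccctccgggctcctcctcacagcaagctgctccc
On both strands, 6 motifs were searched: CAGAC (the core that SMAD proteins bind), TGANTCA (AP-1), GGGCGG (the GC box), TATAAA (the TATA box), CCAAT and TGACGTCA (the cyclic AMP response element). Inhbb had 1 match, a GC box, here on the opposite strand, with its letters 122 to 117 bases before the start site. The GC box is found in 32.7% of 32841 mouse promoters of the same length. Inhba had 1 match, the letters TATAAA at 91 to 86 bases before the start site. Anywhere in the window and on either strand, that motif was found in 12.4% of promoters. Whether it acts as a TATA box in Inhba was not tested. The 2 windows differed in base composition, with 68% G and C and 21 CpG in Inhbb against 43.2% and 3 in Inhba, where the median promoter had 52.4% and 6. The promoters of the receptor genes Acvr1, Acvr1b, Acvr2a and Acvr2b were all richer in G and C than that of Inhbb (72.8% to 85.6%). That of Fstl3 was also richer (71.2%), and that of Fstl1 was equal (68%). For Acvr1, at 85.6%, the start site lay 329 bases from that in the count files. The bases after it were not found in a GENCODE M21 transcript of the gene. The table held promoters for 8 of the 9 genes, without Fst.

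Inhbb was higher in every KO library than in every WT library. Inhbb (ENSMUSG00000037035, chromosome 1, 119415465 to 119422248, GRCm38) had 2.02, 2.65 and 1.95 CPM in WT replicates 1 to 3, from 36, 40 and 25 counts. It had 6.04 CPM in the library labelled KO replicate 1, 14.1 in KO replicate 2, and 10, 15.8 and 16.1 in KO replicates 3 to 5, from 82, 81, 160, 277 and 231 counts. The WT libraries were close to each other and the KO libraries spread over a wider range. The lowest KO library was the one whose Tgfa puts its label in doubt. Mean CPM was 2.21 ± 0.383 for WT (SD, n = 3) against 12.4 ± 4.3 for KO (SD, n = 5), which makes a ratio of 5.62 and a log2 fold change of 2.49 (SE 0.39). Of the 19239 genes tested, 113 (0.587%) had a larger log2 fold change. The groups did not overlap in 5.15% of genes tested, with every KO library above every WT library in 3.4%, and this separation is among the values for which Inhbb was chosen. At the receptor gene rate, a gene of the length of Inhbb would take 19.5 of the 81 counts in KO replicate 2 and 7.84 of the 25 in WT replicate 3, and subtracting that rate gave a log2 fold change of 2.65. Without KO replicate 2 the log2 fold change was 2.41, and among libraries ending in br alone it was 2.06.

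Inhba was scarce and did not separate the groups. Inhba (ENSMUSG00000041324, chromosome 13, 16011851 to 16027211) was at 0.336, 0.397 and 1.41 CPM in the WT libraries and at 1.25, 3.99, 0.313, 0.228 and 0.974 CPM in the KO libraries, from 4 to 23 counts per library. Its highest value was in KO replicate 2, the library with the highest receptor gene rate. The next was in WT replicate 3, with the second highest rate. Other libraries departed from that order. WT replicate 2, at a rate of 0.933, had 0.397 CPM, and KO replicate 5, at the lowest rate (0.124), had 0.974. The receptor gene rate alone would give 9.06 of the 23 counts in KO replicate 2 and 3.65 of the 18 in WT replicate 3. Subtracting that rate gave a log2 fold change of 0.92, against 0.88 with all counts. The log2 fold change of 0.88 (SE 1.08) depended on single libraries in both directions, with -0.08 without KO replicate 2, 0.26 without WT replicate 2, 0.52 without WT replicate 1 and 1.8 without WT replicate 3. Per length, Inhbb made up 39.3% to 75.6% of the beta subunit transcript in WT and 62.1% to 97% in KO, with 88.5% or more in the 3 KO libraries ending in bl.

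**Figure D1:**
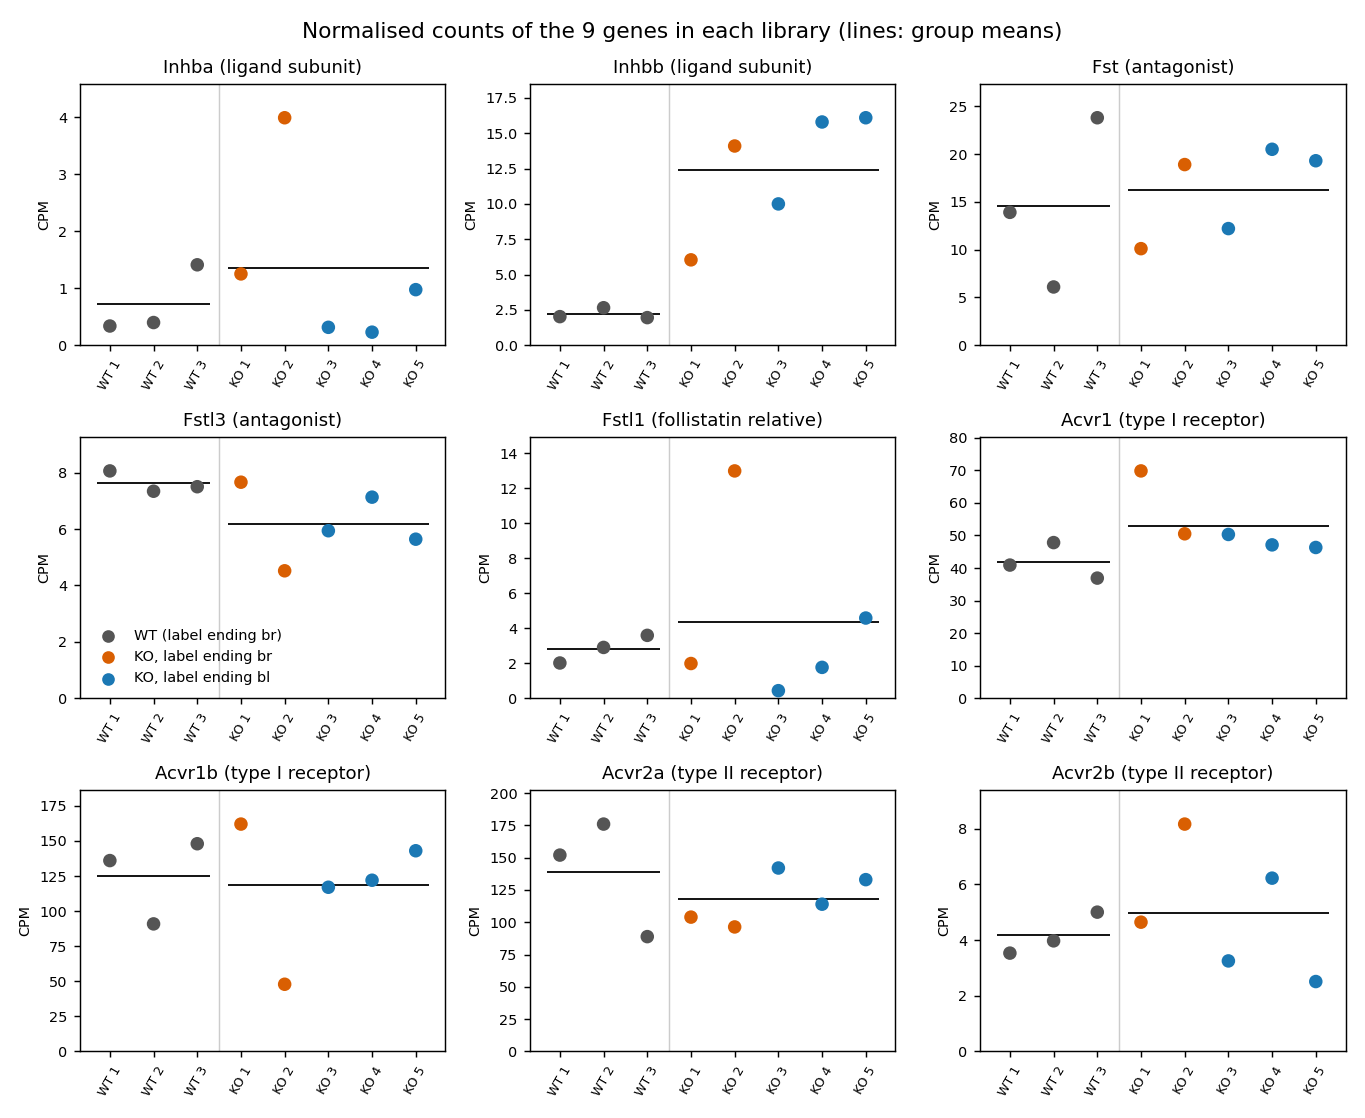
CPM (vertical axes, linear from 0) of the 9 genes in each of the 8 libraries, 1 panel per gene, with horizontal lines at the group means and colours for genotype and label ending. In the Inhbb panel the 5 KO libraries lie between 6.04 and 16.1 CPM and the 3 WT libraries between 1.95 and 2.65, while in the other 8 panels the groups overlap.

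The antagonist genes overlapped between the groups. Fst (chromosome 13, 114452262 to 114458730) was at 13.9, 6.09 and 23.8 CPM in the WT libraries and at 10.1, 18.9, 12.2, 20.5 and 19.3 CPM in the KO libraries. The WT libraries alone spanned the whole KO range, and the log2 fold change was 0.15 (SE 0.42), changing to 0.68 without WT replicate 3 and -0.52 without WT replicate 2. Fstl3 (chromosome 10, 79777272 to 79782630) was even in WT, at 8.06, 7.34 and 7.5 CPM, and had 7.66, 4.52, 5.94, 7.13 and 5.64 in KO. All KO values but that of the library labelled KO replicate 1 were under the lowest WT value. The lowest, in KO replicate 2, came from 26 counts, of which the receptor gene rate would give 11.2. The log2 fold change was -0.3 (SE 0.28), and -0.24 without KO replicate 2. The exons of Fstl3 share 1157 bases with Prss57 on the opposite strand, a gene with at most 28 counts in a library. The sources used here do not state whether counting used strand.

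Set against each other per length, the antagonists Fst and Fstl3 together had 14.4, 6.82 and 11.3 times the RPKM of Inhba and Inhbb together in WT replicates 1 to 3. RPKM here is CPM per kb of the exon length in the files. In KO the ratio was 3.63, 1.87, 3.05, 3.06 and 2.47, so that antagonist transcript exceeded beta subunit transcript in every library and by less in every KO library than in any WT library. The antagonist sum overlapped between the groups, at 5.61 to 13.2 RPKM in WT and 7.46 to 11.7 in KO, whereas the subunit sum was 0.643 to 1.17 in WT and 2.05 to 5.32 in KO. The ratio holds the counts of Inhbb and is no separate evidence.

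Fstl1 (chromosome 16, 37776873 to 37836514), a follistatin relative made mainly by mesenchymal cells and a weak binder of activin, varied most among the KO libraries. Its WT values were 2.02, 2.91 and 3.6 CPM and its KO values 1.99, 13, 0.438, 1.77 and 4.59 CPM, a coefficient of variation of 27.9% in WT and 116% in KO. The KO libraries lay on both sides of WT, with KO replicate 2 highest and KO replicate 3 lowest, at 7 counts. Summed fibroblast markers (Col1a1, Col1a2, Col3a1, Dcn, Lum and Pdgfra) were likewise highest in KO replicate 2, at 74 CPM, and lowest in KO replicate 3, at 3.94, with Lum at 0 there. Summed markers of dermal papilla, skeletal muscle, smooth muscle and pericytes, and adipocytes were also highest in KO replicate 2 and lowest in KO replicate 3. The part of any of these cell types in the values of Fstl1 was not tested. At the receptor gene rate, a gene of the length of Fstl1 would take 22.5 of the 75 counts in KO replicate 2. The log2 fold change of Fstl1 was 0.59 (SE 0.89) over all libraries, 0.65 with that rate subtracted and -0.4 without KO replicate 2.

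The receptor genes Acvr1b, Acvr2a and Acvr1 were the most abundant of the 9, and in CPM the groups overlapped for all 4 receptor genes. Among type I receptors, Acvr1b (chromosome 15, 101174067 to 101213679), which encodes ALK4, was at 136, 90.9 and 148 CPM in the WT libraries and at 162, 47.9, 117, 122 and 143 CPM in the KO libraries (log2 fold change -0.08, SE 0.36). KO replicate 2 was the lowest of all 8 libraries and the other KO libraries lay within or just above the WT range. Acvr1 (chromosome 2, 58388644 to 58567157), which encodes ALK2, a receptor used mainly by bone morphogenetic proteins, was at 40.9, 47.8 and 36.9 CPM in the WT libraries and at 69.8, 50.5, 50.3, 47.1 and 46.3 CPM in the KO libraries. The library labelled KO replicate 1 was the highest and the groups overlapped through KO replicates 4 and 5. That overlap depends on the TMM scaling. As a share of total counts, WT replicate 2 had 723 of 15170544. KO replicates 4 and 5 had larger shares, 826 of 16311197 and 665 of 13831289. The log2 fold change of Acvr1 was 0.34 (SE 0.21), and 0.21 when the highest library was left out.

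Among the type II receptors, Acvr2a (chromosome 2, 48814109 to 48903269) was at 152, 176 and 88.9 CPM in the WT libraries and at 104, 96.4, 142, 114 and 133 CPM in the KO libraries, and its log2 fold change was -0.24 (SE 0.26). All KO values lay between the lowest and the highest WT value. Exons of Acvr2a share 446 bases with Orc4 on the opposite strand, so reads of both genes could be mixed. Acvr2b (chromosome 9, 119402118 to 119434995) was low, with WT values of 3.53, 3.97 and 5 CPM and KO values of 4.64, 8.16, 3.25, 6.22 and 2.51 CPM (log2 fold change 0.24, SE 0.45), with KO libraries on both sides of WT. In KO replicate 2, 18 of its 47 counts would come from the receptor gene rate.

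Compared per length, Acvr1b was the highest of the 9 genes (27.4 ± 8.3 RPKM, SD over the 8 libraries) and Inhba the lowest (0.562 ± 0.632). Between them came Acvr2a (22.1 ± 5.32), Acvr1 (10.1 ± 2.01), Fst (6.68 ± 2.56), Fstl3 (2.75 ± 0.501), Inhbb (2.02 ± 1.46), Acvr2b (1.19 ± 0.464) and Fstl1 (0.772 ± 0.801). Only Acvr2a and Acvr1, of the 8 pairs of neighbours in that order, had ranges that did not overlap. Acvr1b exceeded Acvr2a in 6 of 8 libraries, Acvr1 exceeded Fst in 7 and Fst exceeded Fstl3 in 7. The place of Inhbb depended on the group: it was under Fstl3 in 3 of 3 WT libraries and above it in 3 of 5 KO libraries, and under Acvr2b in all 3 WT and above it in all 5 KO libraries. Acvr2a made up 89.1% to 97.3% of type II receptor transcript per length in all libraries. Among all genes tested, mean RPKM placed Acvr1b at percentile 92, Inhbb at 40.2 and Inhba at 14.8.

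**Figure D2:**
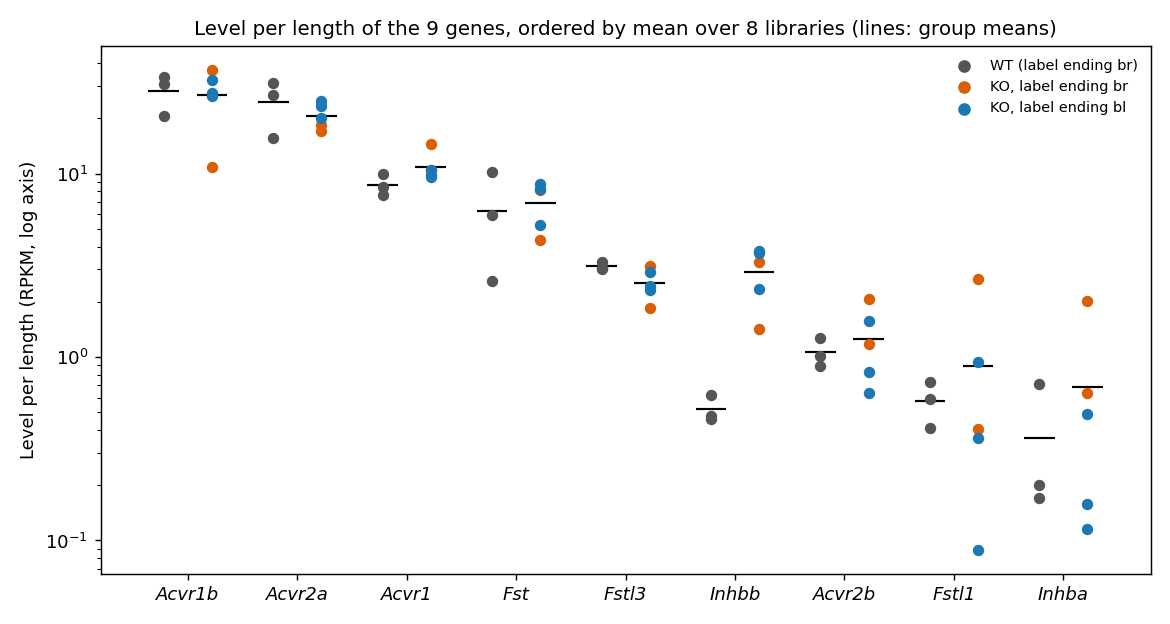
Level per length in RPKM (vertical log axis) of the 9 genes in order of their mean over 8 libraries, with 1 point per library, WT left and KO right of each position, and short lines at the group means. The receptor genes Acvr1b, Acvr2a and Acvr1 lie at the top in both groups, and Inhbb has a mean of 0.518 RPKM in WT and 2.91 in KO.

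Counts over the 9 genes are read against all genes. All 9 passed the filter on low counts. The edgeR quasi-likelihood test of KO against WT called 0 of the 9 at a Benjamini-Hochberg adjusted p under 0.05, where 1 of 19239 genes tested (0.0052%) was called in all. Since the set was built on this comparison, the count is given for reference only. The median log2 fold change was 0.24 over the 9 genes, with 6 positive and 3 negative, and 0.16 over all genes tested.

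Within the KO group, libraries ending in bl were compared with those ending in br, a contrast on which the genes were not chosen. The edgeR test called 0 of the 9 genes, and 1 of 23496 genes in all (0.00426%). At an unadjusted p under 0.05 it had 0 of the 9 and 22.4% of all genes, and limma voom also called 0 of the 9. Inhbb averaged 10.1 CPM in the 2 libraries ending in br and 14 in the 3 ending in bl, a log2 difference of 0.67 (SE 0.41, edgeR adjusted p = 0.334). Inhba and Fstl1 had the largest differences, -2.15 (SE 1.19, edgeR adjusted p = 0.292) and -1.48 (SE 0.87, adjusted p = 0.323). Without KO replicate 2 they were -1.3 and 0.19, and without KO replicate 5 they were -3.03 and -2.51. For Acvr1b the difference did not pass with all libraries (0.34, SE 0.51, edgeR adjusted p = 0.725). The difference was 1.51 (adjusted p = 0.031, with 14.2% of genes called) after the library labelled KO replicate 1 was left out, which leaves KO replicate 2 as the only library ending in br, assumed to vary like the other groups. It was -0.34 without KO replicate 2.

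Inha, which encodes the inhibin alpha subunit, the partner of the beta subunits, was low in WT and in 1 of the 5 KO libraries. Its WT values were 1.01, 1.12 and 0.938 CPM, from 18, 17 and 12 counts. It had 6.6, 7.57, 5.99 and 4.59 CPM in KO replicates 2 to 5, from 38, 121, 105 and 66 counts, and 0.811 CPM, from 11 counts, in the library labelled KO replicate 1. That last library, whose Tgfa puts its label in doubt, had less Inha than any WT library. The other 4 KO libraries lay above WT. Summed Langerhans cell markers divided the libraries into the same sets, in the opposite direction. They had 237 to 378 CPM in KO replicates 2 to 5, 521 to 596 in WT and 631 in the library labelled KO replicate 1. This marker list is named after its values were seen, and its part in the values of Inha was not tested. The log2 fold change of Inha was 2.31 (SE 0.69), which did not pass (adjusted p = 0.574 in edgeR), and 2.58 when that library was left out. Over 19 alternatives its adjusted p ranged from 0.00575 to 1, passing in voom with library weights (adjusted p = 0.0357) and in edgeR without WT replicate 3, the library labelled KO replicate 1 and KO replicate 2 (adjusted p = 0.00575). The latter fit sets WT libraries ending in br against KO libraries ending in bl, so genotype and ending cannot be told apart in it. Inhbb differed from the pattern of Inha in the library labelled KO replicate 1, where its 6.04 CPM was above every WT value.

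**Figure D3:**
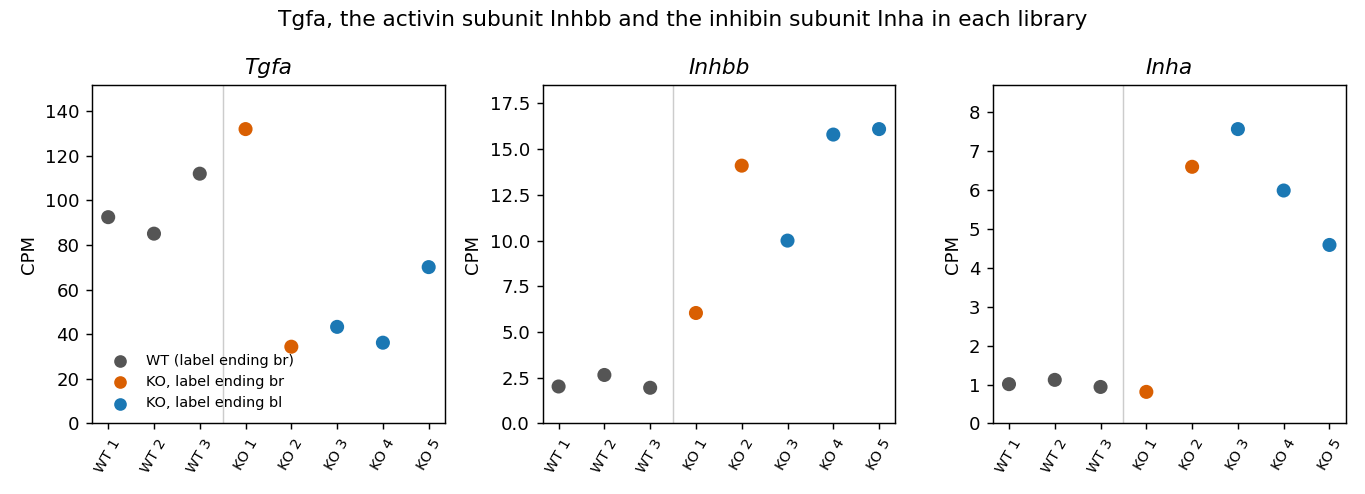
CPM (vertical axes, linear from 0) of Tgfa, Inhbb and Inha in each library, coloured by genotype and label ending. The library labelled KO replicate 1 has Tgfa at 132 CPM, above the WT libraries, and Inha at 0.811, just under them, while its Inhbb is at 6.04, between the WT and the other KO libraries.

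The remaining pathway was described with 8 lists holding 74 genes, of which 61 could be tested. The edgeR test called 0 of the 61, with adjusted p from 0.33 to 0.995, and 5 of the 61 had an unadjusted p under 0.05, 1 lower (Tgif1) and 4 higher in KO (Inha, Postn, Ldlrad4 and Tnc). Over all genes tested the share was 6.28%, with 4.44% higher in KO, so by that count the pathway genes lay near the background. Limma voom called 0, and voom with library weights called 9, with 5 higher and 4 lower (6.46% of all genes). DESeq2 called 2 of 68, Postn higher and Tgif1 lower, and 137 of 43007 genes in all (0.319%). Those 43007 include genes too low for the edgeR filter and genes without an adjusted p, so the DESeq2 shares are not compared. Without WT replicate 3, the library labelled KO replicate 1 and KO replicate 2, edgeR called 3 higher and 8 lower of 58. It called 10.6% of all genes there. That fit sets WT libraries ending in br against KO libraries ending in bl, so genotype and ending cannot be told apart in it. With library weights and with those libraries left out, the lists had a larger share called than all genes. The reason was not tested. Every KO library was above every WT library for 4 of the 61 (Tgfbr3l, Ldlrad4, Tnc and Postn) and below for 1 (Tgif1), against 3.4% and 1.75% of all genes. Ldlrad4, which encodes an inhibitor of SMAD2 and SMAD3 activation, and Tnc, the tenascin C gene, are named after their values were seen, with log2 fold changes of 0.92 (SE 0.31, edgeR adjusted p = 0.645) and 1.49 (SE 0.42, edgeR adjusted p = 0.558). Of the 61, 33 had positive and 28 negative log2 fold changes, with a median of 0.04 against 0.16 over all genes.

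Of 8 other genes of the ligand class (Inha, Inhbc, Inhbe, Gdf11, Mstn, Gdf1, Gdf3 and Nodal) only Inha and Gdf11 had enough counts to be tested. Per length, mean Inha was 0.694 RPKM in WT and 3.47 in KO, above Inhbb in both groups. Gdf11, which encodes a ligand that also signals through activin receptors, was at 2.13, 3.57 and 5.16 CPM in the WT libraries. In KO it was at 5.31 and 10.2 CPM in the libraries ending in br and at 1.31, 0.571 and 1.32 CPM in those ending in bl, so that KO lay on both sides of WT. For Gdf11 the log2 fold change was 0.03 with all libraries, -0.81 without KO replicate 2 and 0.35 without WT replicate 3, and its sign changed in 11 of 19 alternatives. Gdf1 had no count in any library. Among the 13 other receptors and coreceptors, 10 were tested and 5 were positive (median 0). Bmpr2, which encodes a type II receptor of bone morphogenetic proteins, was the most abundant, at 46.9 RPKM in WT and 41.5 in KO. Next came Bmpr1a (27.5 and 27), a bone morphogenetic protein receptor, and Tgfbr3 (betaglycan, 16.4 and 12.9), whose product helps inhibin bind activin receptors. The scarce Tgfbr3l had the largest log2 fold change among them, 1.27 (SE 0.65, edgeR adjusted p = 0.833).

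Of 8 other antagonists and follistatin relatives, 5 were tested (median 0.25). Fkbp1a, which encodes a protein that holds type I receptors inactive, was at 9.58 RPKM in WT and 11.4 in KO. Wfikkn1, whose product binds myostatin, was at 3.62 and 4.26. Lefty1, a Nodal antagonist, was at 2.39, 0.527 and 2.09 RPKM in the WT libraries and 0.377 to 1.46 in KO. Its log2 fold change of -0.69 was -1.37 without WT replicate 2, -0.27 without WT replicate 1 and 0.22 in voom with library weights. The log2 fold change of Fstl5 was 2.08 (SE 2.41, adjusted p = 0.933 in edgeR), and its counts in KO were all in KO replicate 2, at 10.1 CPM. Among 4 proprotein convertases, which cut the activin precursor, Furin was at 14.1 RPKM in WT and 14.8 in KO, Pcsk6 at 14.2 and 13.6, and Pcsk7 at 6.94 and 7.16. Pcsk5 had 19.3 CPM in KO replicate 2 and 0.504 to 2.25 in all other libraries (log2 fold change 1.46, SE 1.27, edgeR adjusted p = 0.919, and -0.89 without that library).

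Inside the cell, 5 of 6 SMAD2/3 transducer genes were tested, 4 of them with negative values (median -0.13). Zfyve9, which encodes the receptor anchor SARA, was at 26.3 RPKM in WT and 24 in KO, Smad4 at 26.1 and 23.2, and Smad2 at 14 and 16.2. Smad3 had the largest log2 fold change of them, -0.4 (SE 0.22, edgeR adjusted p = 0.844). All 11 feedback inhibitors and corepressors were tested, 7 with negative values (median -0.08). Tgif1, which encodes a corepressor of SMAD2 and SMAD3, was at 106, 71.2 and 76.6 CPM in the WT libraries and at 50.4, 38, 45.1, 42.6 and 44.2 CPM in the KO libraries, below WT in 5 of 5 KO libraries (log2 fold change -0.94, SE 0.2, edgeR adjusted p = 0.407). Ski, Ppm1a and Skil, the most abundant of that list, had log2 fold changes of 0.12, -0.07 and -0.29.

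The 17 SMAD2/3 target genes were all tested and differed in sign, 10 with positive and 7 with negative values (median 0.14, range -1.06 to 1.86). Postn, which encodes the matrix protein periostin, was at 74.4, 31.4 and 51.7 CPM in the WT libraries and at 178, 128, 214, 270 and 163 CPM in the KO libraries (log2 fold change 1.86, SE 0.35, edgeR adjusted p = 0.33). Summed fibroblast markers were at 34.1 to 39.6 CPM in WT and at 39.8, 74, 3.94, 20.3 and 33.1 CPM in the KO libraries, and their part in the values of Postn was not tested. The most abundant target was Thbs1, the thrombospondin 1 gene, at 250 RPKM in WT and 120 in KO, but from 31.3 to 443 among the WT libraries alone. Thbs1 had a log2 fold change of -1.06, with -0.38 without WT replicate 1 and -1.6 without WT replicate 3. It was followed by Cdkn1a, a cell cycle inhibitor gene, at 160 and 101, and Tgfbi at 70.4 and 79.1. Of the 7 genes of the SMAD1/5 branch, which bone morphogenetic proteins and ALK2 use, 4 were positive (median 0.14), with Id1 at 17.8 RPKM in WT and 13 in KO, Smad5 at 17.4 and 15.7 and Id2 at 11.8 and 15.1. For Id1 the log2 fold change was -0.45, with 0 without WT replicate 1 and -0.84 without WT replicate 3. Smad6 had the largest log2 fold change among them, 1.17 (SE 0.78, edgeR adjusted p = 0.884).

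**Figure D4:**
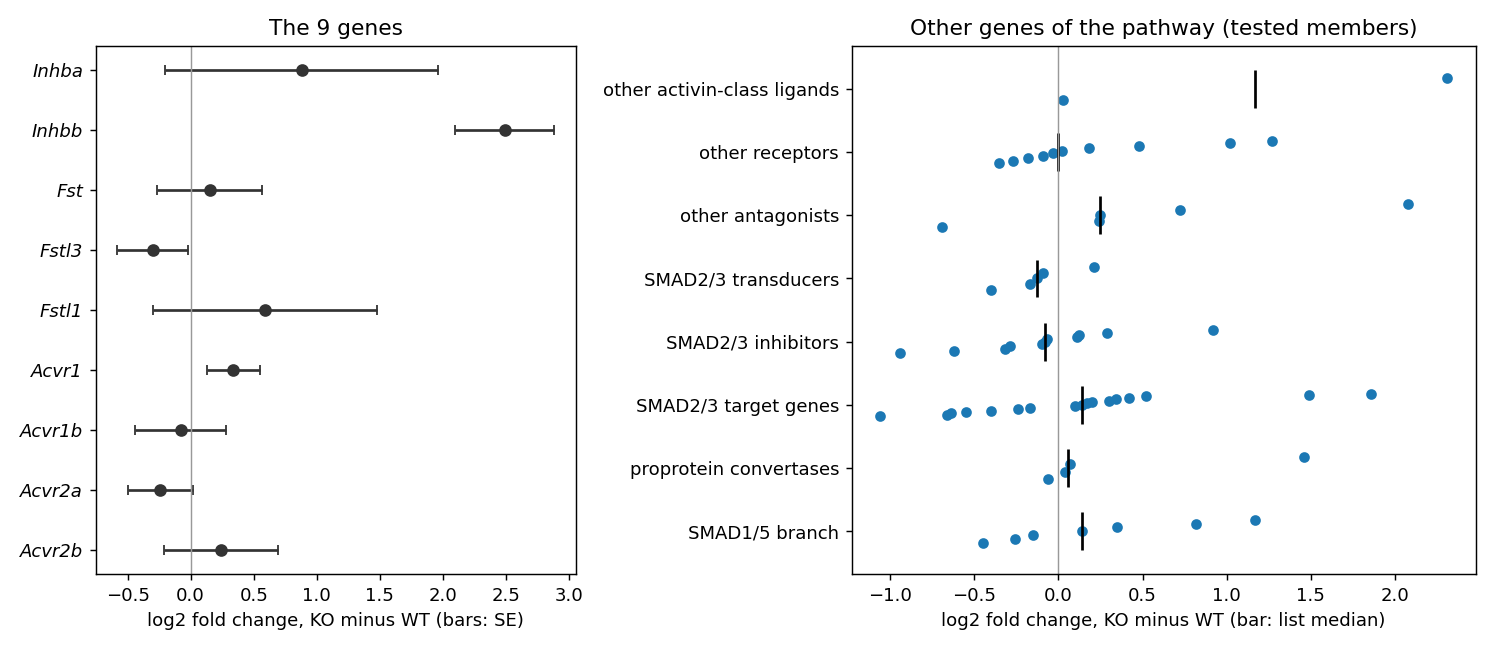
Log2 fold changes of KO minus WT (horizontal axes) for the 9 genes with their SE (left) and for the tested genes of the 8 pathway lists with a bar at each list's median (right). Inhbb lies at 2.49 with the other 8 genes between -0.3 and 0.88, and the list medians lie between -0.13 and 1.17.

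Genes with the pattern most like Inhbb were sought among 12544 genes by the root mean square difference of log2 CPM, each gene centred on its own mean over the 8 libraries. The 5 nearest were Xpnpep2, an aminopeptidase gene, and Apol8, an apolipoprotein L gene (both 0.42), Nav3 (0.44), and Ugt1a7c, a glucuronosyltransferase gene, and Mgst1, a glutathione transferase gene (both 0.45), where the median gene differed by 1.28. These genes were picked for likeness to Inhbb, so their separation between the groups follows from the search and is no separate evidence. Xpnpep2 had 0.86 to 2.24 CPM in WT and 4.42 to 9.12 in KO, and Nav3 3.53 to 6.35 and 13.9 to 26.9. Mgst1, also a sebocyte marker here, had 3.05 to 3.57 and 6.19 to 18.2. The other sebocyte markers overlapped between the groups, with Far2 at 9.46 to 12.2 CPM in WT and 9.43 to 43.4 in KO, Awat2 at 0.331 to 0.86 and 0.442 to 2.64, and Scd1 at 542 to 738 and 425 to 645. The part of sebocyte content in these values was not tested. Reads of Ugt1a7c are uncertain because genes of its cluster share exons. The genes nearest to Inhba were Drc1, Grin3a, B4galt2, Prelp and Kcnk5 (0.21 to 0.32, median gene 1.27). These genes overlapped between the groups, with values from 0.56 to 5.63 CPM in WT and 0.514 to 16.2 in KO.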

How the data were processed

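The authors deposited whole-number read counts per Ensembl gene for each library, without normalization, with exon coordinates and lengths per the file headers. The tools named in the submitters' processing notes are featureCounts (Subread 1.5.2), STAR (2.5.2b) and Trimmomatic (0.36), and the builds are GRCm38 and GRCh38. Of 49315 genes, 49056 matched GENCODE M21 (GRCm38) by identifier, and symbols came from a gene name table. The sources used here do not state strand or multi-mapping settings.

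The 9 members, the pathway lists and the tests were chosen with earlier results of these data known. Groups come from the labelled genotype, and replicate numbers follow deposition order and pair nothing. All pairs of libraries differed by more than sampling noise (lowest chi-square per gene 13.7). Since the labels name no separate animals, p-values reflect only variation among these libraries, which may be technical. Main fits used edgeR 4.0.16 in R 4.3.3 (TMM, filterByExpr, robust quasi-likelihood, Benjamini-Hochberg adjusted p under 0.05), on genotype alone and on 3 groups (WT, KO br, KO bl). SE is the absolute log2 fold change over the square root of F. Alternatives included DESeq2 1.42.0, limma 3.58.1 voom with and without library weights, other scalings and filters, subtraction of the receptor gene rate (1700 genes) and left-out libraries. Text names all 9 genes, and from each list the 3 tested genes with the highest mean RPKM and the 1 with the largest fold. For likeness, genes had a mean of at least 2 CPM, log2 CPM a prior count of 2, and predicted genes were left out.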

Additional observations from a re-analysis of the deposited data

Results flagged for a closer look

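Among the 5 KO libraries, 2 of 11 quantities examined (the CPM of the 9 genes, Tgfa and Inha) had 1 library far from the other 4, with a gap to the nearest library, as a share of the whole range, above Dixon's 95% critical value (which chance meets in about 1 of 20 groups). Inhba was at 3.99 CPM in KO replicate 2, and the other 4 libraries ranged from 0.228 to 1.25 (gap 0.728 of the range). That library also had the highest receptor gene rate, and the part of that rate in the value was not tested beyond the subtraction given above. Acvr1 was at 69.8 CPM in the library labelled KO replicate 1 and 46.3 to 50.5 in the other 4 (gap 0.819). That library also had the lowest TMM factor, 0.78 against 0.978 to 1.13 elsewhere, which raises its CPM. As a share of total counts, its 947 of 17417500 lay just under the 291 of 5313552 in KO replicate 2. The flag therefore depends on the scaling. This is also the library whose Tgfa puts its label in doubt.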

How the results depend on the processing

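The log2 fold change of Inhbb stayed between 2.03 and 2.66 over 19 alternatives. Inhbb was chosen on this difference, so its passing or missing a threshold is not counted. The median log2 fold change of all genes, 0.16 in the main test, was 0.53 with any count kept, 0.49 in DESeq2, -0.01 in both voom fits and 0.09 to 0.25 with RLE, library totals, receptor rate subtraction, the ending as a covariate or br libraries only. Fstl3, Acvr1 and Acvr2a kept their sign in all 19, while Fstl1 and Acvr1b changed it in 5, Fst and Acvr2b in 3 and Inhba in 1 of 17. The number of genes called in KO against WT was 1 in the main test and 0 with RLE size factors, limma voom or libraries ending in br only. It was 9 with any count kept, 137 in DESeq2, 1243 with library weights and 0 to 1 with each library left out in turn. Doubted libraries were also left out together, a choice made after seeing the data. Without the library labelled KO replicate 1 and KO replicate 2 the number was 21, and without those and WT replicate 3 it was 1883. Both fits set WT libraries ending in br against KO libraries ending in bl, so genotype and ending cannot be told apart there. The libraries left out had the lowest library weights in voom, 0.284, 0.366 and 0.339, against 1.47 to 2.26 elsewhere. KO bl against KO br gave 1 gene, 0 with RLE or only the 5 KO libraries, 3324 with any count kept, and 0 to 4190 with a library left out, the highest without the library labelled KO replicate 1 (124 without KO replicate 2).

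With each library left out in turn, the difference of KO bl minus KO br ranged from -0.02 to 0.79 for Fst, -2.51 to 0.19 for Fstl1, -0.29 to 0.57 for Fstl3, -0.53 to 0.02 for Acvr1 and -0.34 to 1.51 for Acvr1b. The sign changed without the library labelled KO replicate 1 for Fst and Acvr1, and without KO replicate 2 for the other 3. Fstl3 was also -0.02 with RLE and -0.03 with only the 5 KO libraries. In KO against WT, the value of Fstl5 was -1.08 (limma voom) and -2.18 (library weights). That of Pcsk5 was -0.13 and -0.27 there, -0.77 and -0.5 with the doubted libraries left out, and -0.89 (without KO replicate 2) to 1.76 with each library left out in turn. The causes were not tested. The order of the 9 genes per length was the same in all 10 alternatives run. No paired analysis was possible because replicate numbers follow deposition order. Inhba, at 4 to 23 counts, and Fstl1, at 7 to 75, are limited by depth.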
